A study of Saccharomyces cerevisiae with 36 samples.

Results

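The DHD subset pool holds the A and B chains of 61 designed heterodimers, and its members are the pool's 2 libraries, 1 after and 1 before growth selection, of the 36 libraries of the series. The 61 designs comprise 35 designs named ZCON, 21 named DHDr2 and 5 named mALb8. In the 2-hybrid assay each yeast cell carried 1 row chain and 1 column chain with their barcodes, so that 14884 ordered pairs, every chain with every chain including itself, were counted together. The library after selection came from medium without tryptophan and histidine, and the library before selection from medium without tryptophan alone. The sample descriptions give 1 mM 3-AT for both, whereas the growth protocol shared by the series gives 3 mM, and the title of the library after selection carries both signs for histidine; its description and table give the selected state. All libraries used here came from one strain of mating type a, with AGA1 under GAL1 at the AGA1 locus marked by URA3, the HIS3 reporter as leu2::pGAL6z-HIS3, pep4::BleoMX, and the alleles ura3-52, trp1, leu2-delta200, his3-delta, prbd1.6R, can1 and GAL. The same chains were also measured within a larger DHD pool of 337 proteins, with 2 biological replicates after and 2 before selection, also described as 1 mM 3-AT. Pairs are named here with the row chain first, because the labels do not say whether rows or columns carried the DNA-binding domain.

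Designed heterodimers of the DHD type are pairs of helical hairpins that assemble into one helical bundle, in which buried hydrogen-bond networks are meant to make each chain prefer its own partner. In a yeast 2-hybrid, an interacting pair brings an activation domain to the DNA-binding fusion and turns on HIS3, the imidazoleglycerol-phosphate dehydratase of histidine synthesis. The compound 3-AT is a competitive inhibitor of that enzyme, so cells with more HIS3 product grow faster in its presence and their barcodes gain reads. An all-by-all pool therefore reads out both the intended partner of a chain and its other contacts.

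Within the ZCON designs, the names show 9 with the suffix swap, 3 without a suffix, 5 with LL, 7 with resurf and 11 with T2, T4, T5, T6 or the same marks after cut, called truncated here after the word cut. The 5 mALb8 designs are mALb8 and its cutT1 to cutT4 forms. The labels do not say what LL, resurf, swap and each T number change in the protein. Several forms share a parent name, such as ZCON_154_swap, ZCON_154_LL and ZCON_154_resurf, and these are called a family. A pair of chain A and chain B of one design is called a partner pair, and chain A of one form with chain B of another form of its family a crossed pair.

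Each chain was identified by 1 barcode of 20 bases, and no barcode was shared by 2 chains. The same barcode stood for the same chain in the maps of the 3 library sets in 244 of 244 comparisons. The following barcodes, written as in the map, belong to the chains that carried the highest partner pairs and the most repeated contacts between designs.
A_ZCON_154_swap: taaccgtatacgcctgattg
B_ZCON_154_swap: atggtagtcacatgctccaa
ZCON_VR_2_cutT2_A: tggagccctatgcccgcccg
ZCON_VR_2_cutT2_B: gttgcacgttcaagaggctc
DHDr2_13_A: aatcgttgccctgacgagac
DHDr2_19_B: ttaagacgaactgccacagc
Any 2 barcodes differed at 7 or more of their 20 bases. The closest are shown with the bases that differ in capitals.
DHDr2_12_A: gagggtcCtTgGtTgTcTTg
ZCON_150_LL_B: gagggtcTtCgCtAgAcGAg

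The library after selection held 20288936 reads and the library before selection 21994913 reads. The median pair had 58 reads after and 923 reads before, and 1589 pairs after and 381 pairs before had no read. Selection concentrated the reads: the 10 pairs with most reads held 15.3% of reads after and 0.759% before, and the top 100 held 56.2% after and 5.47% before. The value of a pair is the log2 of its reads plus 1 over the library total, after minus before, for the 12792 pairs with at least 10 reads before, and it is given relative to the median of all pairs that are not partner pairs. This relative log2 change is positive for a pair that gained more than the typical non-partner pair, whose own share of the library fell by 3.72 on the log2 scale. With 1 library in each state there is no replicate check within the pool and no test. A pair is called past the fold when its relative log2 change is at least 3, which is 8-fold, and printed intervals are exact (Clopper-Pearson) 95% intervals of the read split that cover counting error only.

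Partner pairs gained more reads than other pairs, but most of them did not pass the fold. Of the 99 partner pairs with at least 10 reads before selection, 40 were past the fold (40.4%), against 952 of all 12792 pairs (7.44%). Their median relative log2 change was 0.99, and 31 of them lay below 0. Partner pairs held 1848916 reads after selection (9.11%, interval 9.1% to 9.125%) and 211615 reads before (0.962%, interval 0.958% to 0.9662%). Most of the 40 pairs lay well inside the threshold: 29 were at or above 5 and 20 at or above 7, while 6 lay within 0.5 of it, with ZCON_37_swap A with B lowest inside at 3.17. ZCON_15_re_loop_swap B with A was just outside at 2.86.

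Crossed pairs came next, with 52 of 171 past the fold (30.4%) and a median of 0.72. They held 16.2% of reads after and 1.3% before. Of 85 homodimers, a chain with itself, 9 were past the fold (10.6%, median 0.71), and 14 of 175 pairs of 2 A chains or 2 B chains of one family (8.0%, median 0.15). The 12262 pairs of chains from different families had a median of -0.02 and 837 past the fold (6.83%), and in number these made up most of the pairs past the fold. In pairs between families, the shares by chain letter were close: 6.4% of A with A, 6.68% of A with B, 7.19% of B with A and 7.05% of B with B pairs were past the fold.

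**Figure D1:**
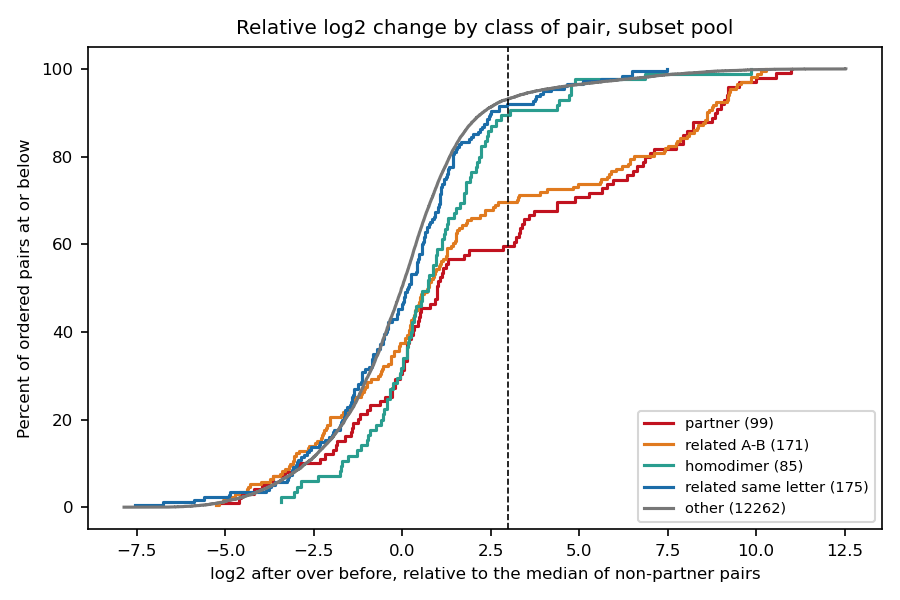
Percent of ordered pairs in the subset pool at or below each relative log2 change (after over before selection, relative to the median of non-partner pairs), 1 line per class of pair with the number of pairs in the legend and the fold of 3 dashed. Partner (99) and related A-B pairs (171, the crossed pairs) run below the other lines to the right of the dashed line, where 40.4% and 30.4% of their pairs lie.

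Both orientations of a partner pair, A as row with B as column and the reverse, could be read for 46 designs. In 16 of them both orientations were past the fold, in 7 only 1 was and in 23 neither. Over the 46 designs the orientations correlated with a Pearson r of 0.82, with each design measured in the same libraries and under the same barcodes, and their median distance was 1.42. For pairs between families, both orientations were past the fold in 136 of 643 unordered pairs in which either was, and r was 0.29 over 5554 pairs.

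The highest partner pairs were those of ZCON_VR_2_cutT2. Its A with B pair had 51785 reads after and 362 before, a relative log2 change of 11 (interval 10.85 to 11.15), and its B with A pair 19203 after and 271 before, a change of 9.98 (9.82 to 10.17). ZCON_154_swap, whose barcodes are shown above, had 178547 reads after and 4714 before as A with B, a change of 9.08 (9.04 to 9.13). As B with A it had 522358 reads after, the most of any pair, and 4981 before, a change of 10.55 (10.51 to 10.59). ZCON_152_T2 followed with changes of 9.19 and 9.51 in its A with B and B with A orientations. For ZCON_VR_2_cutT2 and ZCON_154_swap the distance between orientations was wider than either interval.

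Next in the order of their lower orientation came ZCON_154_LL (8.90 and 9.20), ZCON_154_resurf (9.01 and 8.20), DHDr2_03 (7.92 and 8.04), ZCON_162_swap (7.72 and 8.76), ZCON_VR_2_resurf (6.85 and 7.95) and DHDr2_07 (8.20 and 6.80), each as relative log2 change of A with B and then B with A. DHDr2_08 (6.36 and 6.64), DHDr2_11 (8.85 and 5.63), ZCON_152 (4.87 and 5.95), DHDr2_17 (5.80 and 4.36), ZCON_155_swap (6.53 and 3.73) and ZCON_VR_2 (3.59 and 4.36) completed the 15 highest. Neighbours in this order often differed by less than the distance between their own orientations, as DHDr2_11 shows, so the order within the group is not resolved.

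At the low end, DHDr2_14 had 3 reads after and 714 before as A with B (-3.64) and 2 after and 1006 before as B with A (-4.55). DHDr2_06 was alike, with changes of -2.93 and -4.61 from 544 and 698 reads before. DHDr2_12 (-1.40 and -1.87) and DHDr2_15 (-1.25 and -1.95) were also below the typical non-partner pair in both orientations. The other designs among the 8 lowest could be read in 1 orientation only: mALb8_cutT2 A with B (-5.12, 0 reads after and 496 before), ZCON_155_cutT2 B with A (-3.97, 0 after and 223 before), ZCON_152_T4 A with B (-3.65, 4 after and 896 before) and ZCON_2_CC B with A (-0.21, 191 after and 3186 before). Where no read was seen after selection, the change rests on the added read and the interval has no lower end.

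The orientations of 2 designs lay more than 5 apart. ZCON_6_swap had 11900 reads after and 1328 before as A with B (7.0) and 345 after and 2520 before as B with A (0.98). DHDr2_01 had 5 reads after and 429 before as A with B (-2.32) and 887 after and 328 before as B with A (5.27). All 4 of these pairs had 328 or more reads before selection, and in each design 1 orientation was past the fold and the other was not. Neither gap recurred in replicate 1 of the larger pool. There DHDr2_01 gave 5.76 as A with B (1348 reads after and 161 before) and 4.51 as B with A, and ZCON_6_swap gave -0.11 and 0.67.

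**Figure D2:**
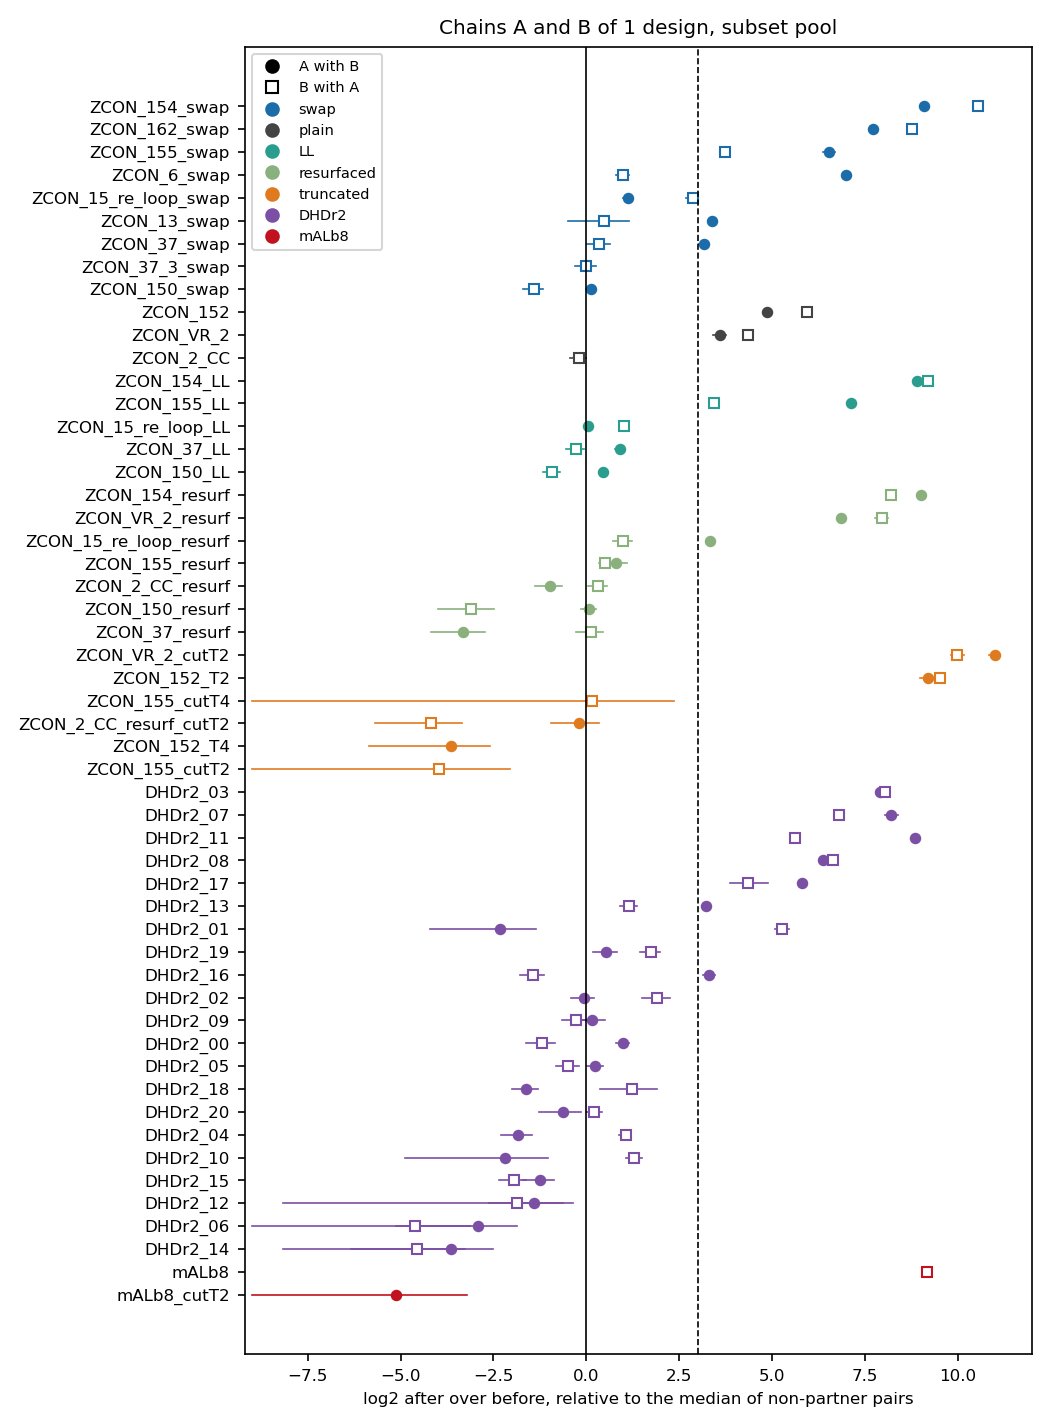
Relative log2 change of the partner pairs of the 53 designs with at least 1 readable orientation in the subset pool, with A with B as filled circles, B with A as open squares, colours for the form in the name, lines for the 95% counting interval (cut at the left edge of the axis), a solid line at 0 and a dashed line at the fold of 3. ZCON_VR_2_cutT2 and ZCON_154_swap are farthest right, and DHDr2_14, DHDr2_06 and mALb8_cutT2 farthest left.

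By form, 9 of 17 readable partner pairs of the swap designs were past the fold (median 3.17). ZCON_154_swap was highest, and by its better orientation ZCON_37_3_swap was lowest (B with A -0.01), while single pairs ranged down to -1.42. Among LL designs 4 of 10 were (median 0.97), all of ZCON_154_LL and ZCON_155_LL, while by its better orientation ZCON_150_LL was lowest with 0.46 and -0.92. Among resurf designs 5 of 14 were (median 0.64), with ZCON_154_resurf highest and ZCON_150_resurf lowest by its better orientation (0.06 and -3.10). Designs without a suffix gave 4 of 5 readable pairs, all of ZCON_152 and ZCON_VR_2 and none of ZCON_2_CC. DHDr2 designs gave 13 of 42 (median 0.38), of which DHDr2_11 was highest and DHDr2_14 lowest by the better orientation, whereas by the lower one DHDr2_03, DHDr2_07 and DHDr2_08 stood above DHDr2_11. Among DHDr2 chains of different designs, 140 of 1635 pairs were past the fold (8.56%), near the 7.44% of all pairs. The share of pairs past the fold in every one of these groups stood above the 7.44% of all pairs, but the groups hold between 3 and 21 designs of different parents and were not compared by a test.

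Truncated and mALb8 forms were mostly unread in this pool. Of the 23 partner pairs with fewer than 10 reads before, 21 belonged to them, and 15 of the 23 had no read after. Truncated designs left 9 of 22 partner pairs readable, and 4 of the 9 were past the fold, both orientations of ZCON_VR_2_cutT2 and of ZCON_152_T2. The cutT4, cutT5, cutT6 and T4 forms gave no partner pair past the fold, but 8 designs had no readable partner pair at all, and their absence from the list is a limit of reads, not a measured loss. Of 10 mALb8 partner pairs 2 were readable. The B with A pair of mALb8 had 32487 reads after and 801 before (9.18, interval 9.08 to 9.29), whereas its A with B pair had 9 after and 5 before. In the larger pool, where all partner pairs of these chains had enough reads in replicate 1, 4 of the 23 were past the fold: mALb8 A with B (9.04), both mALb8_cutT1 pairs (7.31 and 9.33) and ZCON_2_CC_resurf_cutT6 B with A (8.74). The other 19 lay between -3.76 and 1.41 there, including both orientations of mALb8_cutT3, mALb8_cutT4, ZCON_155_cutT5, ZCON_2_CC_resurf_cutT4, ZCON_VR_2_cutT4 and ZCON_VR_2_cutT6. In replicate 2, mALb8_cutT1 A with B gave 7.87, and its B with A pair had 7 reads before and was not read. There mALb8 A with B gave 0.51 (2 reads after and 12 before) and ZCON_2_CC_resurf_cutT6 B with A -0.96 (1 after and 23 before). The A with B pair of ZCON_2_CC_resurf_cutT6 was at -0.88 in replicate 1.

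Coverage before selection was uneven between chains in the same way. The 30 chains with a T mark had a median of 44 column partners under 10 reads when they were the row chain and 36 row partners when they were the column chain, against 9 and 8 for the other 92 chains. Pairs between families with 2 truncated chains had a median of 3 reads before, those with 1 had 450 and those with none 1519.

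Families differed in whether their forms exchanged chains. In the ZCON_154 family all 6 partner pairs and all 12 crossed pairs were past the fold, with medians of 9.05 and 9.19. B_ZCON_154_swap with ZCON_154_LL_A was the highest crossed pair of the pool, with 144266 reads after and 1662 before (10.28), and the lowest of the family was B_ZCON_154_swap with ZCON_154_resurf_A (6.21). In the ZCON_VR_2 family all 6 readable partner pairs and 17 of 36 readable crossed pairs were past the fold. ZCON_VR_2_A with ZCON_VR_2_cutT4_B had 235208 reads after and 3012 before (10.13), although the cutT4 form's own partner pairs had too few reads to be given. ZCON_VR_2_A with ZCON_VR_2_cutT2_B followed with 294652 after and 4544 before (9.86).

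In the ZCON_152 family, 4 of 5 partner pairs and 5 of 9 crossed pairs were past the fold, and ZCON_152_T2_A with ZCON_152_B reached 8.60. In the ZCON_155 family 4 of 8 partner and 8 of 44 crossed pairs were, led by ZCON_155_resurf_B with ZCON_155_LL_A (9.84). There the partner pairs of ZCON_155_resurf stayed at 0.79 and 0.50, while its B chain gave 8.79 with A_ZCON_155_swap. The ZCON_15_re_loop family had 1 of 6 partner pairs and 7 of 12 crossed pairs past the fold, led by ZCON_15_re_loop_resurf_A with ZCON_15_re_loop_LL_B (7.13). In the mALb8 family 1 of 8 readable crossed pairs was past the fold, mALb8_cutT1_A with mALb8_B, with 68045 reads after and 1400 before (9.44). The remaining ZCON families were low: ZCON_150 had 0 of 6 and 2 of 12, ZCON_37 had 1 of 6 and 0 of 12, and ZCON_2_CC had 0 of 5 and 0 of 26, each as partner and crossed pairs past the fold.

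**Figure D3:**
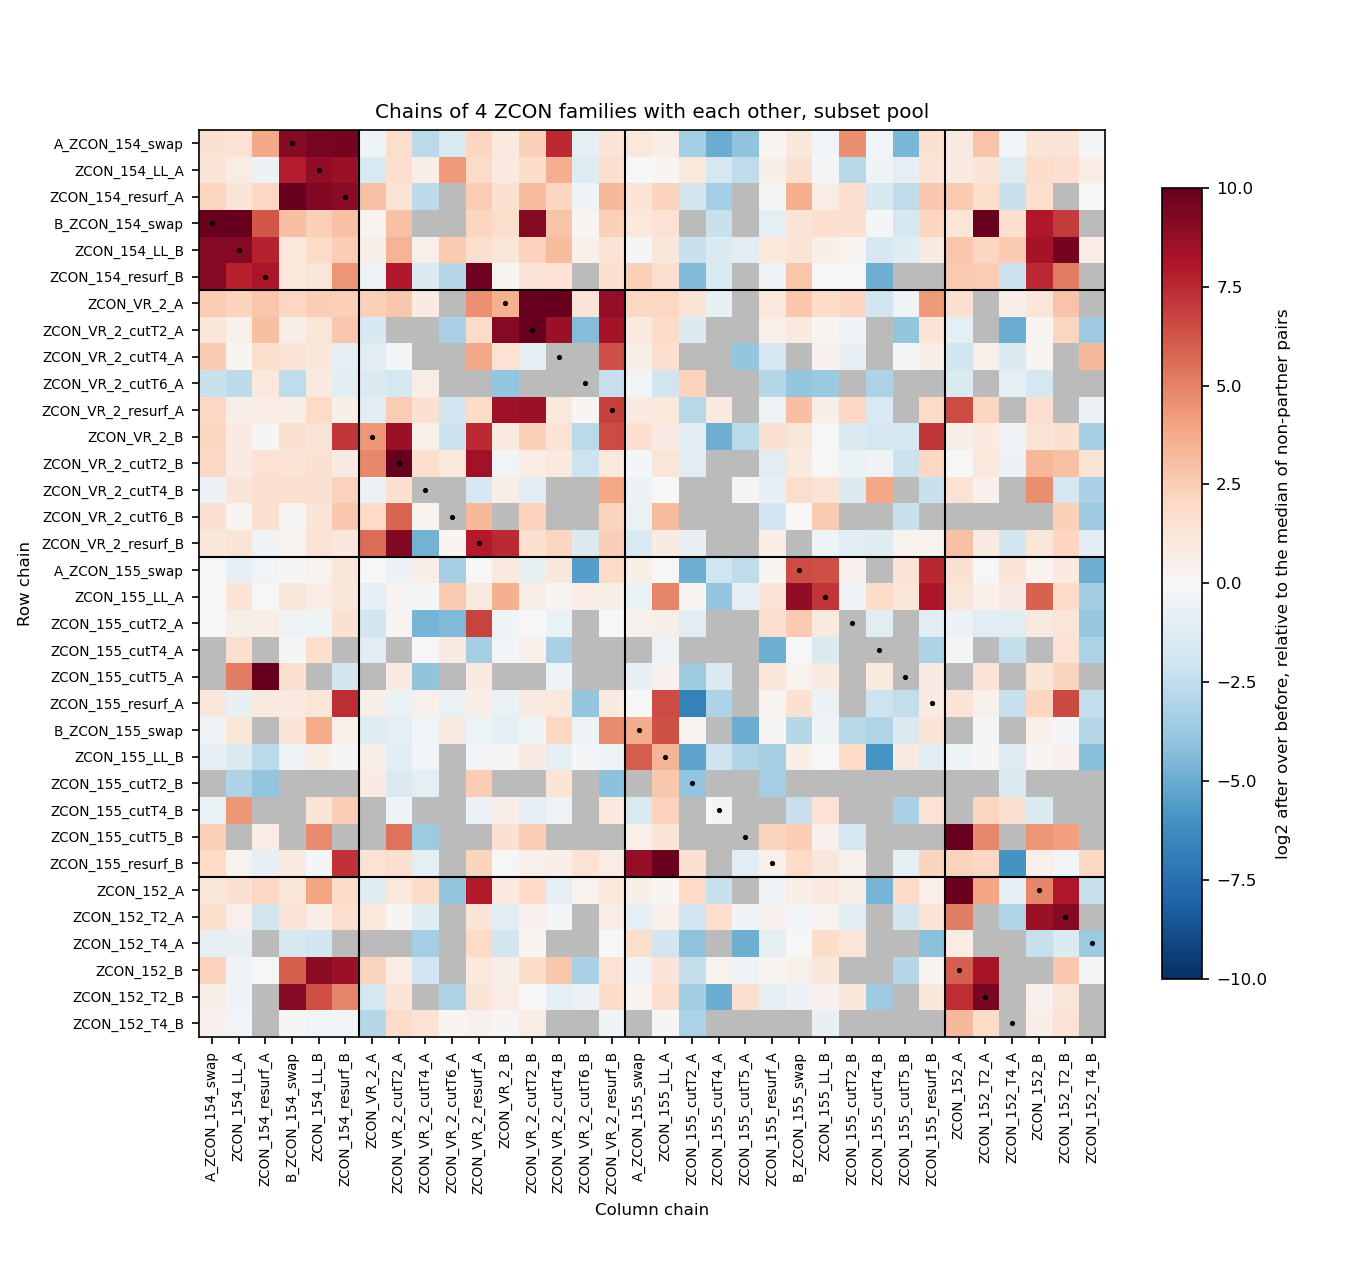
Relative log2 change of row chains (down) with column chains (across) for the ZCON_154, ZCON_VR_2, ZCON_155 and ZCON_152 families in the subset pool, red above and blue below the typical non-partner pair, grey for pairs with fewer than 10 reads before, dots on partner pairs and black lines between families. Where A chains meet B chains, ZCON_154 forms red blocks, with 12 of 12 crossed pairs past the fold, and the other families are mixed. There 17 of 36 readable crossed pairs of ZCON_VR_2, 8 of 44 of ZCON_155 and 5 of 9 of ZCON_152 were past it. Red cells also appear between B chains, such as ZCON_152_B with ZCON_154_resurf_B (8.63).

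Among homodimers, ZCON_152_A with itself was highest, with 82285 reads after and 1283 before (9.84), above both partner pairs of ZCON_152. DHDr2_07_A followed with 12484 after and 1530 before (6.87). The others named by the rule were ZCON_155_LL_A (4.89), DHDr2_04_A (4.78), mALb8_cutT1_B (4.77), DHDr2_13_A (4.70), ZCON_154_resurf_B (4.43, from 23 reads after and 15 before) and ZCON_2_CC_A (4.36, from 42 after and 29 before). Of the 9 homodimers past the fold here, only DHDr2_13_A was past it in both replicates of the larger pool as well, with 3.16 and 4.84. That homodimer was at 1.55, below the fold, once the row and column medians of its chain were subtracted. The ZCON_152_A homodimer gave -0.57 in replicate 1 of that pool, from 7 reads after and 76 before.

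In the subset pool the own partner was seldom a chain's highest one. Of 99 row chains with a readable own partner, 8 had that partner first among a median of 112 readable partners, and 30 had it in the top 5. As column chains 6 of 99 had it first and 27 in the top 5. The median rank of the own partner was 25 for row chains and 29 for column chains. These ranks rest on 1 library set, and the partners ranked include other forms of the own partner. Of pairs between families past the fold here and readable in replicate 1 of the larger pool, 39.7% were past it there too.

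Single chains also gained with many partners. Over partners that are not their own, the highest row medians were those of DHDr2_13_A (1.88), ZCON_VR_2_A (1.68), DHDr2_11_A (1.52), B_ZCON_154_swap (1.39) and mALb8_cutT1_B (1.21). The highest column medians were those of DHDr2_12_A (1.64), DHDr2_19_B (1.60), ZCON_152_T2_B (1.41), ZCON_VR_2_resurf_A (1.39) and DHDr2_13_A (1.31). Only DHDr2_13_A was on both lists. It was past the fold with 33 of 107 column partners and with 26 of 114 row partners. ZCON_VR_2_A, second as a row chain, had a median of -0.72 as a column chain. In replicates 1 and 2 of the larger pool its medians were 0.9 and 2.32 as a row chain. As a column chain they were -1.42 and 2.52, so the difference was not seen in replicate 2. With each chain's row and column medians subtracted, the median of partner pairs stood 1.05 above that of the other pairs, against 0.99 without.

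The 15 highest pairs between families ranged from 10.38 to 12.54, above most partner pairs, and they seldom repeated. The highest, DHDr2_14_B with DHDr2_12_A, had 145811 reads after and 351 before (12.54), while the reverse orientation gave -0.78 and replicate 1 of the larger pool gave 0.56. ZCON_155_cutT5_B with A_ZCON_37_swap (11.95) had -1.29 in reverse and 3.56 in replicate 1 of the larger pool. The next were mALb8_cutT3_B with ZCON_2_CC_A (11.37), ZCON_155_cutT5_B with ZCON_152_A (11.22), ZCON_2_CC_resurf_cutT6_A with DHDr2_00_A (11.19) and mALb8_cutT4_A with DHDr2_04_A (11.13). In replicate 1 of the larger pool these 4 pairs lay between -1.77 and 0.45.

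A_ZCON_37_swap with mALb8_B (11.04) and mALb8_B with ZCON_2_CC_resurf_B (11.02) gave 7.58 and -0.64 in that replicate. DHDr2_13_A with DHDr2_19_B (10.58) gave 9.47 and 5.93 in the replicates of the larger pool and 9.33 in reverse, and A_ZCON_6_swap with DHDr2_09_B (10.54) gave 7.95, 3.68 and 5.34 in the same order. The last were DHDr2_02_A with ZCON_VR_2_resurf_A (10.52), ZCON_VR_2_cutT6_B with DHDr2_07_B (10.49), DHDr2_12_A with A_ZCON_13_swap (10.47), ZCON_2_CC_resurf_cutT4_A with ZCON_VR_2_cutT2_B (10.42) and ZCON_155_cutT5_A with ZCON_154_resurf_A (10.38). Of all 15, 2 of the 11 that could be read in reverse were past the fold there, 5 of 15 were past it in replicate 1 of the larger pool, and 2 were past it in all 3 library sets. A chain with a T mark took part in 8 of the 15. Of the 12262 readable pairs between families, 4031 held 1 such chain and 296 held 2.

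The larger pool allowed each pair to be read in 2 more library sets, at lower depth on these pairs. It held 6640352 and 549371 reads on pairs of these chains after selection, in replicates 1 and 2, and 5108437 and 569538 before. The median pair had 44 and 4 reads after and 280 and 27 before, so replicate 2 carries the larger counting error. The same rule there put 42 of all partner pairs past the fold in replicate 1 (background 6.84% of pairs) and 22 of 103 in replicate 2 (background 9.12%). Their medians were 0.63 and 0.1. Of crossed pairs, 56 of 236 and 33 of 225 were past the fold in replicates 1 and 2. The crossed medians were 0.35 and -0.62, the last below the typical non-partner pair.

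The values of partner pairs correlated between the pools. Over 99 partner pairs the subset pool and replicate 1 correlated with r = 0.83, and over 83 pairs the subset pool and replicate 2 with r = 0.53, against 0.38 and 0.33 over all pairs (12752 and 11068). All of these share chains and barcodes. Of partner pairs readable in both, 33 were past the fold in the subset pool and replicate 1, which is 82.5% of the 40 of the subset pool and 86.8% of the 38 of replicate 1. For crossed pairs the shared number was 44, or 84.6% and 86.3% of the 2 lists. For pairs between families it was 330, or 39.7% and 40.3%. The background of being past the fold in both was 3.23% of all pairs.

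The height of a pair in the subset pool went with its repeat in replicate 1. Of partner and crossed pairs between 3 and 5, 8 of 18 were past the fold in replicate 1, between 5 and 7 it was 16 of 20, between 7 and 9 it was 31 of 32, and at 9 or more it was 22 of 22. For pairs between families the share did not continue to rise, with 24.1% between 3 and 5, 57.7% between 5 and 7, 49.7% between 7 and 9 and 52.6% at 9 or more. The repeat also went with the reverse orientation. Where a pair between families was past the fold in both orientations, 216 of 272 were past it in replicate 1 (79.4%), against 104 of 504 where the reverse was not (20.6%). The pairs with a reverse past the fold also had more reads before, a median of 1560 against 938. Of pairs between families past the fold, 278 of 605 without a truncated chain, 52 of 211 with 1 and 0 of 16 with 2 were past it in replicate 1.

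**Figure D4:**
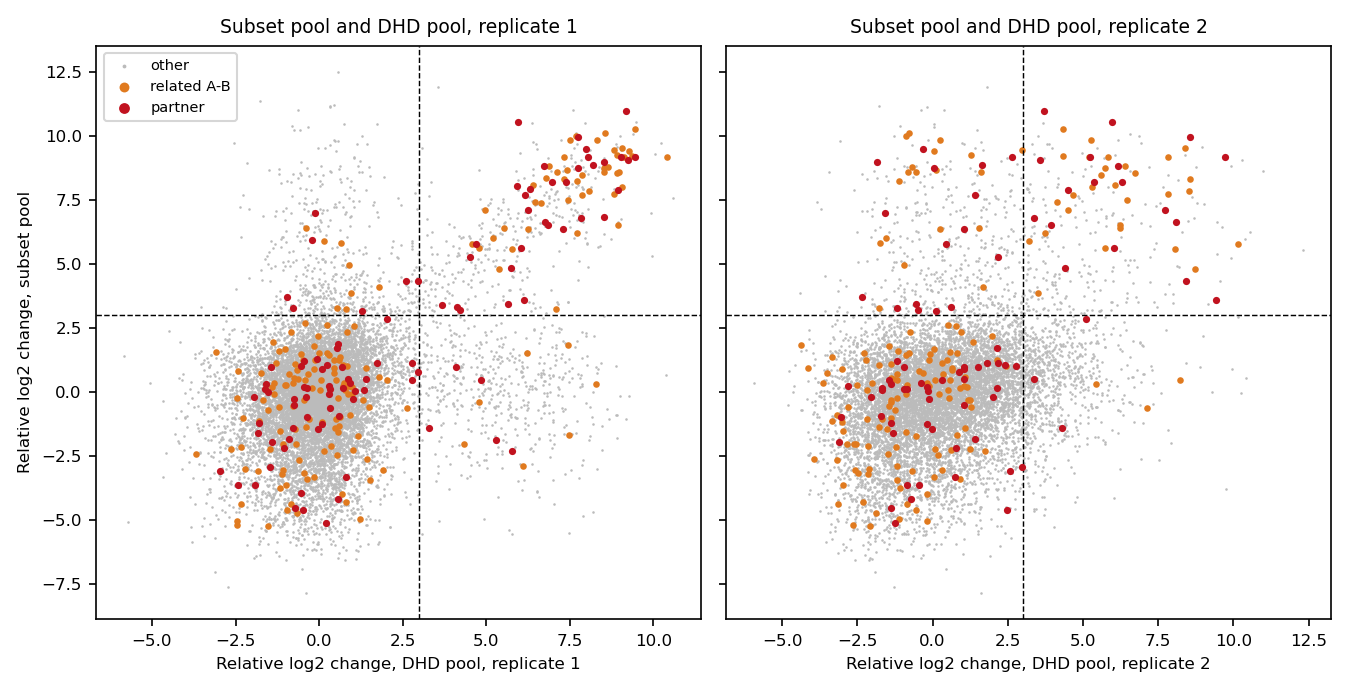
Relative log2 change in the subset pool (vertical) against replicate 1 (left) and replicate 2 (right) of the larger DHD pool, 1 point per ordered pair of the subset pool's chains, with partner pairs red, crossed pairs orange (related A-B) and pairs between families grey, and dashed lines at the fold of 3. The upper right corner with replicate 1 holds 33 partner pairs, 44 crossed pairs and 330 pairs between families. A column of pairs high in the subset pool alone stands above 0 on the horizontal axis.

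In all 3 library sets, 17 of 83 partner pairs, 27 of 162 crossed pairs, 147 of 10594 pairs between families and 1 of 58 homodimers were past the fold, against 1.75% of all pairs readable in the 3. Without replicate 2, the shallower one, 33 partner pairs were past it in both remaining sets. The 17 included both orientations of ZCON_VR_2_cutT2, ZCON_154_swap, DHDr2_07 and DHDr2_11. DHDr2_11 A with B gave 8.85, 6.73 and 6.16 in the subset pool and replicates 1 and 2, and B with A gave 5.63, 6.04 and 6.02. ZCON_154_swap B with A gave 10.55, 5.94 and 5.97, and ZCON_152_T2 B with A gave 9.51, 7.99 and -0.31, the last from 5 reads after and 45 before.

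There were 21 unordered pairs between families past the fold in both orientations of all 3 sets. DHDr2_19_B with ZCON_VR_2_resurf_B led the list, with 7.96 as the lowest of its 6 values. In the subset pool it had 49329 reads after and 1747 before (8.66), and reversed 48774 after and 916 before (9.57). A_ZCON_154_swap with DHDr2_13_A was second, with 115187 reads after and 1613 before (10.00) and reversed 340521 after and 5773 before (9.72), and its lowest of 6 values was 6.86. DHDr2_08_A with DHDr2_16_B followed with a lowest value of 6.06, although neither orientation of the DHDr2_16 partner pair was past the fold in the larger pool. These pairs were chosen after their values were seen, as the repeat itself defines the list.

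Some chains recurred among the 21 pairs, but most of the chains in them did not. DHDr2_13_A was in 5 of them, and DHDr2_19_B, ZCON_VR_2_resurf_B and B_ZCON_15_re_loop_swap in 4 each. ZCON_152_T2_B was in 3, and B_ZCON_154_swap, ZCON_154_LL_B and ZCON_37_LL_A in 2 each. The most recurrent chains were past the fold with many partners in the subset pool. As column chains, DHDr2_13_A and DHDr2_19_B were with 26 of 114 row partners each, ZCON_VR_2_resurf_B with 21 of 116 and B_ZCON_15_re_loop_swap with 19 of 116. Of all pairs, 7.44% were past it. Same-letter pairs made up 11, with 9 of B with B and 2 of A with A. Of the 12262 readable ordered pairs between families, 3079 were B with B and 3080 A with A, so same-letter pairs were about as common there. The B chains of ZCON_154 recurred with those of ZCON_152 and its T2 form: ZCON_152_B with ZCON_154_resurf_B gave 8.63 and 7.46 reversed, and ZCON_152_T2_B with ZCON_154_LL_B gave 6.46 and 9.56. DHDr2_11_B with DHDr2_17_B gave 8.47 and 7.38, at the height of the partner pairs of DHDr2_11 (8.85 and 5.63) and above those of DHDr2_17 (5.80 and 4.36).

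**Figure D5:**
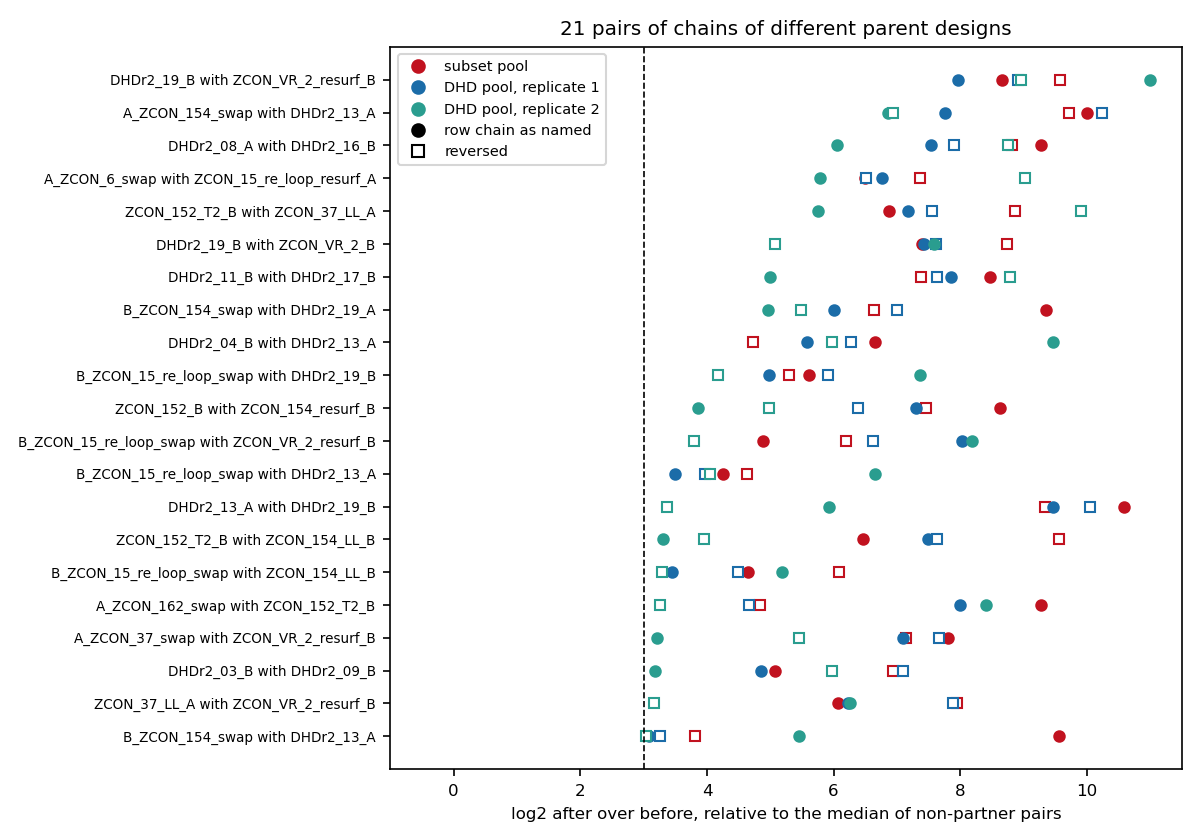
Relative log2 change of the 21 pairs between families that were past the fold (dashed) in both orientations of all 3 library sets, with colours for the subset pool and the replicates of the larger DHD pool, filled circles for the row chain as named and open squares for the reverse. The pairs run down by their lowest value, from 7.96 for DHDr2_19_B with ZCON_VR_2_resurf_B to 3.03 for B_ZCON_154_swap with DHDr2_13_A.

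With the 3 library sets as replicates, selection was tested per pair with edgeR's quasi-likelihood test and Benjamini-Hochberg adjustment over the 14669 shared pairs with enough reads. No pair was called (0.0% of pairs), the lowest adjusted p being 0.451, at a common dispersion of 0.709. At an unadjusted p under 0.05, 812 of the 14669 pairs were higher after selection and 587 lower. Among the higher were 36 of all partner pairs and 45 of 233 crossed pairs, each a larger share than of all pairs. With library set as a block, 588 pairs were higher and 659 lower, with 22 partner and 27 crossed pairs among the higher. DESeq2 on the same reads called 1056 pairs higher (7.2%) and 618 lower, among them 38 partner pairs, 50 crossed pairs, 9 homodimers and 941 pairs between families higher. For mALb8_B with mALb8_A both gave similar log2 changes, 8.79 with SE 2.41 and adjusted p = 0.451 in edgeR and 8.86 with SE 0.83 and adjusted p = 3.12e-23 in DESeq2. DHDr2_13_A with A_ZCON_154_swap gave 9.09 ± 2.54 (SE, adjusted p = 0.451) in edgeR and 9.10 ± 1.00 (SE, adjusted p = 5.88e-17) in DESeq2.

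The 4 libraries of the larger pool were also fitted alone. Over all 110004 tested pairs of that pool edgeR called none (0.0%, lowest adjusted p among pairs of the subset's chains 0.664). At an unadjusted p under 0.05, 422 of the 14637 tested pairs of these chains were higher after selection and 395 lower. Among the higher were 16 of all partner pairs, a larger share than of these pairs as a whole. They also held 3 of 234 crossed pairs, a smaller share than of these pairs as a whole. With library set as a block, 114 of these pairs were higher and 392 lower. The higher then held 1 partner pair and 0 crossed pairs. DESeq2 called 7961 pairs of the whole pool higher (7.24%), among them 40 partner pairs and 53 crossed pairs of these chains, though 10566 of the 14637 pairs of these chains received no adjusted p from it. The partner pairs' median log2 change was 0.53 in the larger pool and 0.61 over the 3 sets in edgeR, and their median SE was 1.32 and 1.27. For crossed pairs the medians were -0.33 and -0.1, with a median SE of 1.3 and 1.19.

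Whether selection differed between the subset pool and the larger pool was tested as an interaction in edgeR, with the subset pool's single libraries assumed to vary like those of the larger pool. No pair was called (0.0%, lowest adjusted p = 0.664), with 494 higher and 509 lower in the subset pool at an unadjusted p under 0.05. DESeq2 called 410 pairs higher (2.8%) and 143 lower in the subset pool, of which 3 higher were partner pairs and 7 were crossed pairs. By their values alone, and with no call in edgeR, the partner pairs of DHDr2_12 were lower in the subset pool. They had -1.40 (10 reads after and 416 before) and -1.87 (1 after and 104 before) there. In replicate 1 of the larger pool they had 3.29 and 5.30. In replicate 2 they had 6 and 8 reads before and were not read.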

How the data were processed

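The deposited tables hold read counts per ordered pair of chains, as whole numbers made by the authors from sequenced barcodes. Per the submitters' processing notes DESeq2 was used on counts before and after selection; neither its version nor the alignment and barcode matching is stated there. All values start from the deposited counts. The deposited barcode maps (a name and a barcode per line) were used to check chain identity; 18 chain names lack the suffix swap in 1 library set and were matched without it.

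Values per pair are log2((reads + 1) / library total) after minus before, for pairs with at least 10 reads before, centred on the median of non-partner pairs (-3.72 in the subset pool, -2.77 and -2.59 in replicates 1 and 2 of the larger pool). Classes were read from chain names. Intervals are exact (Clopper-Pearson, 95%); reads carry no molecular identifiers, so intervals cover counting error only.

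Fits used edgeR 4.0.16 (glmQLFit robust, glmQLFTest, TMM, pairs averaging 10 or more reads a library, Benjamini-Hochberg adjusted p under 0.05) with limma 3.58.1 in R 4.3.3, after fits were tested on simulated data. SE is the absolute log2 change over the square root of F. DESeq2 1.42.0 was an alternative. Replicates 1 and 2 of the larger pool are biological replicates per the labels; nothing says that they came from separate transformations, so p-values measure the spread between these libraries. Same-numbered libraries come from one library set per the labels, and their deviations correlated with r = 0.329; library set as a block was an alternative. Other computing used Python 3.11.15, numpy 2.4.6, pandas 2.3.3, scipy 1.17.1 and matplotlib 3.10.9.

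Members, classes and lists were chosen with earlier results of these data known. Named were the 15 designs with the highest lower orientation, the 8 with the lowest higher orientation, designs with orientations over 5 apart, the highest and lowest design of each form, the 15 highest pairs between families, up to 8 homodimers past the fold and the 5 highest row and column chains; crossed pairs and repeated pairs were added after their values were seen.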

Additional observations from a re-analysis of the deposited data

Results flagged for a closer look

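In 5 named pairs the subset pool was past the fold while both replicates of the larger pool lay below 0. A_ZCON_6_swap with B_ZCON_6_swap had 7.0 in the subset pool and -0.11 and -1.58 in replicates 1 and 2. B_ZCON_155_swap with A_ZCON_155_swap had 3.73, against -0.95 and -2.35. DHDr2_16_A with DHDr2_16_B had 3.31, against -0.77 and -1.18. The homodimer of DHDr2_07_A had 6.87, against -0.39 and -0.11. ZCON_2_CC_resurf_cutT4_A with ZCON_VR_2_cutT2_B had 10.42, against -0.81 and -1.08. In the edgeR interaction fit the adjusted p of these 5 pairs ran from 0.664 to 0.762. In DESeq2 it was 0.00989 for ZCON_6_swap, 0.00883 for ZCON_155_swap, 0.073 for DHDr2_16, 0.0105 for DHDr2_07_A and 7.71e-07 for the last pair. Before selection the 5 pairs had 760 or more reads in the subset pool and as few as 13 in replicate 2.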

How the results depend on the processing

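The median of partner pairs minus that of other pairs stayed between 0.91 and 1.46 under the other pseudocounts, minimum reads, definitions of other pairs and centring by chain. Single values nevertheless changed. At a pseudocount of 5, 34 of 75 named pairs moved outside their counting interval, though none left the fold. With row and column chain medians subtracted, 61 of 75 moved outside it, and 3 of the 56 named pairs past the fold left it. These were the homodimers of DHDr2_13_A (1.55, against 4.70) and ZCON_154_resurf_B (2.48, against 4.43) and ZCON_VR_2_A with ZCON_VR_2_B (1.37, against 3.59). The count of all pairs past the fold was 1610 at a relative log2 of 2 and 515 at 5, and the partner count 41 and 29. The share of reads after selection in partner pairs was 9.18% with homodimers left out of the total. DESeq2 called 1209 pairs of these chains in the larger pool's fit, 1674 over the 3 sets and 553 in the interaction, where edgeR called none. Without TMM the fit over the 3 sets called 8166 pairs, 46 of them higher and 8120 lower. The replicate block called 0 pairs in each fit, with a lowest adjusted p of 0.093 over the 3 sets. Leaving out 1 library gave between 0 and 1485 calls in the larger pool, 0 in each case over the 3 sets, and between 0 and 1657 in the interaction. Calls appeared where DHD_after replicate 1 (1485 and 1657) or replicate 2 (1163 and 1550) was left out, so that a lone library after selection was assumed to vary like the others. Partner pairs past the fold in all sets, an alternative chosen after seeing the data, numbered between 18 and 33 with 1 set left out. Of the named pairs, 3 changed sign, none of them past the fold. B_ZCON_37_3_swap with A_ZCON_37_3_swap (-0.01) gave 0.01 at a pseudocount of 0.5 and 0.71 with chain medians subtracted, ZCON_150_resurf_A with ZCON_150_resurf_B (0.06) gave -0.03 at a pseudocount of 5, and ZCON_2_CC_B with ZCON_2_CC_A (-0.21) gave 0.47 with chain medians subtracted. Replicate 2 of the larger pool limits the repeat, since its median pair of these chains had 4 reads after selection and 27 before.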
